A study of Homo sapiens with 33 samples.

Results

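PIK3IP1, PIK3R1, DDIT4, DDIT4L, SGK1, SESN1, SESN3, DEPTOR and INPP5D act on, or directly below, the signalling route from PI3K through AKT to mTOR, and most of them slow it. These 9 genes were chosen by name, with no measured value in the rule, though earlier results of these data were known. Each was read from its row among 62446 gene rows in all 33 libraries. Bulk RNA was sequenced from cell lines of human acute lymphoblastic leukaemia (ALL), with 11 groups of 3 libraries. Nalm6 is a B-cell precursor ALL line and CEM a T-cell ALL line. All cultures were grown in medium with charcoal-stripped serum, which lacks most steroid hormone, and treatments lasted 24 h. Parental Nalm6 cells were given CHIR-99021 at 0.5 µM, prednisolone at 5 µM or dexamethasone at 100 nM, or nothing. The dexamethasone group has an untreated parental group of its own. Nalm6 cells edited with CRISPR/Cas9 at TLE1, a co-repressor gene, were given prednisolone at 5 µM, dexamethasone at 100 nM, or nothing. The labels do not say whether this TLE1 knockout is 1 clone. The labels give 1 untreated knockout group and do not say which untreated parental group goes with the knockout dexamethasone libraries. CEM cells were given CHIR-99021 at 2 µM, prednisolone at 10 µM, or nothing. CHIR-99021 inhibits the kinase GSK3 and so activates Wnt signalling, while prednisolone and dexamethasone are glucocorticoids, which act through a nuclear receptor and kill many lymphoid cells.

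PI3K makes a membrane lipid that recruits the kinase AKT, and AKT switches on mTOR complex 1, which drives protein synthesis and growth. Brakes act at each step: some proteins hold PI3K itself in check, a lipid phosphatase removes the signal, and stress-induced proteins shut down mTOR complex 1 through the TSC and GATOR complexes. Lymphoid leukaemia cells often depend on this route, and its activity is known to bear on their response to glucocorticoids.

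The libraries held 25292579 to 61930057 gene counts each, and levels are given as CPM (counts scaled to a common library size) in the order of libraries 1, 2 and 3. At these depths a count of 0 allows at most 0.0484 to 0.119 CPM, for counting error only. All 8 B-cell precursor markers reached 1 CPM in every Nalm6 and knockout library, and all 8 T-cell markers did so in every CEM library. PAX5 and EBF1, which define the B-cell lineage, were under 1 CPM in every CEM library. TLE1 RNA was still present: untreated parental libraries held 30.2, 34.0 and 31.8 CPM, and untreated knockout libraries 25.4, 24.0 and 24.0 CPM. TLE1 RNA does not show whether the protein was lost. In bulk RNA, a change in the mix of cells and a change in RNA per cell cannot be told apart. The untreated Nalm6 group of the dexamethasone experiment and the other untreated Nalm6 group differed in 50.2% of 17478 genes and in 7 of the 9 genes described here. They are therefore kept apart. Going by titles, Nalm6 dexamethasone is set against its own untreated group, and CHIR-99021 and prednisolone in Nalm6 against the other. The titles do not tie the prednisolone libraries to that group, and a fit of prednisolone against the untreated dexamethasone set was not run. Prednisolone in the knockout and both treatments in CEM are set against the untreated group of the same cells.

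PIK3IP1 encodes a membrane protein that binds the catalytic subunit of PI3K and inhibits it. It had the largest fold rise of the 9 genes under glucocorticoid in each of the 4 treated comparisons. Untreated Nalm6 libraries held 1.05, 0.796 and 0.749 CPM, and prednisolone libraries 35.5, 39.7 and 39.6 CPM. Untreated libraries of the dexamethasone experiment held 1.497, 1.48 and 1.41 CPM, and dexamethasone libraries 103, 105 and 106 CPM. CEM went from 2.64, 2.57 and 2.60 CPM to 132, 133 and 125 CPM under prednisolone. Every treated library was far above every untreated one, in both lines and with both agents. The rise was 43.0-fold in Nalm6 with prednisolone (log2 5.43 ± 0.09 SE, n = 3 against 3, adjusted p = 2.31e-17). With dexamethasone it was 69.5-fold (log2 6.12 ± 0.06, adjusted p = 4.18e-17), and in CEM with prednisolone 48.9-fold (log2 5.61 ± 0.05, adjusted p = 3.43e-21). Reads on the opposite strand of PIK3IP1 came to 2.67% to 76.2% of the reads counted there on either strand, with the highest shares in cells without glucocorticoid. When both strands were counted together, its log2 rises were 3.66, 5.08 and 4.88 in the same order, all still called. Among all genes tested it ranked 79 of the rises in Nalm6 with prednisolone, 84 with dexamethasone and 23 in CEM. Adjusted p-values here and below are from the quasi-likelihood F test of edgeR, adjusted by Benjamini-Hochberg over all genes tested, and a gene is called changed at an adjusted p under 0.05.

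The promoter region of PIK3IP1 is shown because this gene rose most. RefSeq lists 2 start sites for it, 46 bases apart, on the minus strand of chromosome 22 in GRCh38.p14. The window of the second, chr22:31292439-31292738, runs from 250 bases before the start to 50 after it, and is printed 5′ to 3′ on the strand of the gene. Capitals mark matches, on either strand, to the FOXO site GTAAACA (here on the reverse strand) and to the glucocorticoid receptor hexamer AGAACA.

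PIK3IP1: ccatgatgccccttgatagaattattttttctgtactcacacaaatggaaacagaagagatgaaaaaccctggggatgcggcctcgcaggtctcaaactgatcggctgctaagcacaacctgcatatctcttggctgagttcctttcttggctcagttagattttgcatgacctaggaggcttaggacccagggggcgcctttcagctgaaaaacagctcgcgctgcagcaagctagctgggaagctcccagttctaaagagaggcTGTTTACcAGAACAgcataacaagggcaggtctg

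The FOXO letters begin at base 17 after the start and the hexamer at base 25, so both lie in the first transcribed bases of this isoform. The window of the first start holds AGAACA but not GTAAACA. Of 35116 RefSeq windows of this length, 14.8% hold AGAACA and 3.42% hold GTAAACA. A match is a stretch of letters and does not show binding. The search also covered the paired form AGAACANNNTGTTC (0.0114% of all windows), the TCF/LEF site as CTTTGAT (2.62%) or as CTTTGAA (4.43%), and the E-box CACGTG (7.26%). Every motif was sought on both strands, and no printed match overlaps another. No window of DEPTOR was searched, which does not mean that RefSeq lacks a start site for it. For the other 8 of the 9 genes, 16 windows were searched, and 5 of the 16 held a match, each of them with AGAACA. They belong to PIK3IP1, PIK3R1 and SGK1. None of these 16 windows held the paired form, a TCF/LEF site or an E-box. The count files use an older genome build (hg19 in the submitters' processing notes), and no coordinate was carried between builds.

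**Figure D1:**
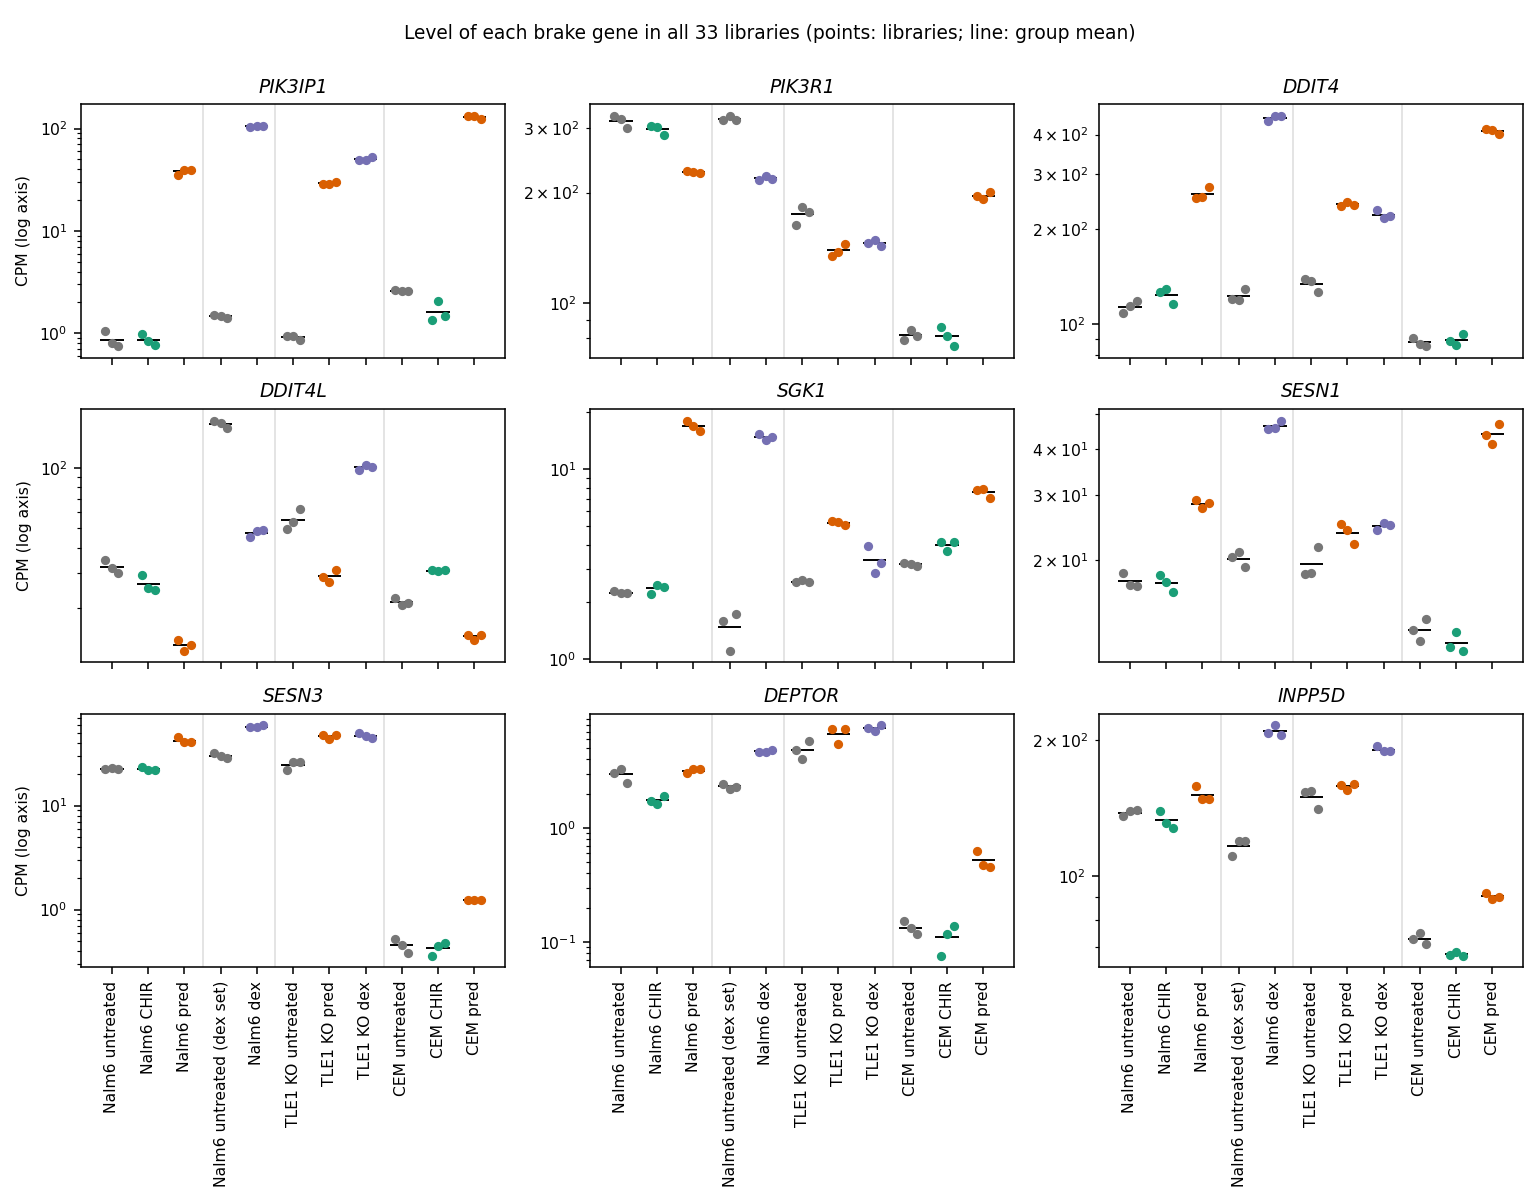
Levels of the 9 genes in each of the 33 libraries, in CPM on a log axis, with 1 point for each library and the 11 groups side by side. PIK3IP1 lies between 0.749 and 2.64 CPM in all libraries without glucocorticoid and between 28.4 and 133 CPM in all libraries with it, while DDIT4L is lower under prednisolone than in the untreated group of the same cells.

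With prednisolone, 8 of the 9 genes changed in Nalm6 (6 rose and 2 fell), against a background of 54.8% of 18658 genes (28.7% rose and 26.1% fell). With dexamethasone all 9 changed in Nalm6 (7 rose and 2 fell), against 60.5% of 17217 genes (30.2% in each direction). With prednisolone all 8 genes other than DEPTOR changed in CEM (7 rose and 1 fell), against 45.1% of 17381 genes (22.3% rose and 22.8% fell). DEPTOR is set apart there because it passed the filter on low counts only through the treated group. So many genes changed in these comparisons that the count alone says little. Sizes are given as a description only, since normalization holds the median of all genes close to no change. The 9 genes were also chosen with earlier results of these data known. The median log2 fold change of the 9 genes was 0.67 and 0.98 in the Nalm6 comparisons, that of the 8 in CEM was 1.31, and that of all genes tested was 0.03, 0.02 and 0.02. The dexamethasone and prednisolone groups differ in agent, dose and the untreated group set against them, so their values stand side by side without a comparison.

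DDIT4 and DDIT4L are paralogs, also known as REDD1 and REDD2, and both proteins inhibit mTOR complex 1 through the TSC complex. Their RNAs went opposite ways under glucocorticoid in parental cells of both lines. Knockout cells with dexamethasone differed from this, in a comparison with untreated knockout cells that was not tested. DDIT4L there was at 97.6, 103 and 101 CPM, against 49.4, 53.5 and 62.4 CPM in the untreated knockout. For DDIT4 the levels there were 230, 218 and 221 CPM against 140, 137 and 127 CPM. DDIT4 was at 108, 114 and 118 CPM in untreated Nalm6 and at 251, 253 and 272 CPM with prednisolone. With dexamethasone it was at 441, 458 and 459 CPM, against 120, 120 and 129 CPM in the untreated libraries of that experiment. In CEM it was at 90.7, 86.5 and 85.3 CPM untreated and at 417, 412 and 402 CPM with prednisolone. Every treated library was above every untreated one in each of these comparisons. DDIT4 rose 2.24-fold in Nalm6 with prednisolone (log2 1.16 ± 0.05, adjusted p = 9.03e-13), 3.59-fold with dexamethasone (1.84 ± 0.04, adjusted p = 1.02e-13) and 4.59-fold in CEM (2.20 ± 0.03, adjusted p = 1.45e-18).

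DDIT4L was at 34.6, 31.5 and 29.9 CPM in untreated Nalm6 and at 13.8, 12.2 and 13.0 CPM with prednisolone. In the dexamethasone experiment the untreated libraries stood at 172, 168 and 159 CPM and the treated ones at 45.0, 48.2 and 48.8 CPM. In CEM the levels were 22.3, 20.8 and 21.1 CPM untreated and 14.7, 13.8 and 14.7 CPM with prednisolone. Treated libraries were below the untreated libraries set against them each time. The fold fall of DDIT4L was 2.52 in Nalm6 with prednisolone (log2 -1.34 ± 0.06, adjusted p = 1.68e-11), 3.61 with dexamethasone (-1.85 ± 0.05, adjusted p = 7.29e-13) and 1.52 in CEM (-0.61 ± 0.05, adjusted p = 6.36e-08). Even so, every dexamethasone library held more DDIT4L than any untreated Nalm6 library of the other set, and the untreated groups themselves were 5.43-fold apart (log2 2.44 ± 0.06, adjusted p = 1.12e-10). That gap was the 11th largest rise among 17478 genes, and the labels name nothing that distinguishes these untreated groups beyond the experiment.

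The promoters of this pair are printed because the paralogs moved in opposite directions with glucocorticoid in parental cells. The DDIT4 window is chr10:72273674-72273973 on the plus strand and the DDIT4L window chr4:100190419-100190718 on the minus strand, both in GRCh38.p14. Neither holds any of the letters searched, so no base is in capitals.

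DDIT4: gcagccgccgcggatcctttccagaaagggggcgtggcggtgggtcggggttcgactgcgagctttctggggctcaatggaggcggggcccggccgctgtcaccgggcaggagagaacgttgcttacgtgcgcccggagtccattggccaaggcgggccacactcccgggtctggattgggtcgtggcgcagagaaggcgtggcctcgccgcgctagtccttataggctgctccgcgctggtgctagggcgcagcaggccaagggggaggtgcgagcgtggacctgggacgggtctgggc

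DDIT4L: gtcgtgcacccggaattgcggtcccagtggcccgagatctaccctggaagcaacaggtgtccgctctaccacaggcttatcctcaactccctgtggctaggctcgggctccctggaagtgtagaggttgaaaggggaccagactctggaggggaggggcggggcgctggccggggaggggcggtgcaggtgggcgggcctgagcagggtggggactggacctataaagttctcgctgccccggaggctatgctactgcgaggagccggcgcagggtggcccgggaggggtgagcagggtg

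Their GC content was 69.67% for DDIT4 and 67% for DDIT4L, against a median of 58.67% over all windows. The absence of a match says only that these letters are not in these 300 bases.

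The sestrins SESN1 and SESN3 restrain mTOR complex 1 through the amino acid sensing GATOR complexes. Both rose with glucocorticoid in parental cells of either line. SESN1 was at 18.4, 17.1 and 16.9 CPM in untreated Nalm6 and at 29.2, 27.7 and 28.5 CPM with prednisolone, 1.59-fold higher (log2 0.67 ± 0.05, adjusted p = 7.88e-09). With dexamethasone it went from 20.4, 21.0 and 19.1 CPM to 45.4, 45.8 and 47.9 CPM, 2.25-fold higher (1.17 ± 0.05, adjusted p = 1.70e-10). In CEM it went from 12.8, 12.02 and 13.8 CPM to 43.9, 41.5 and 47.0 CPM, 3.36-fold higher (1.75 ± 0.06, adjusted p = 5.69e-14). Groups did not overlap in any of these. SESN3, known as a target of FOXO factors, went from 22.5, 22.7 and 22.5 CPM to 45.1, 40.8 and 40.4 CPM with prednisolone in Nalm6, 1.82-fold higher (0.86 ± 0.05, adjusted p = 1.54e-10). The dexamethasone rise of SESN3 was 1.85-fold, from 31.7, 29.7 and 28.8 CPM to 56.3, 56.6 and 58.8 CPM (0.89 ± 0.05, adjusted p = 2.12e-09). CEM cells held very little SESN3, 0.520, 0.461 and 0.384 CPM untreated and 1.24, 1.23 and 1.23 CPM with prednisolone, and there the rise was 2.61-fold (1.38 ± 0.21, adjusted p = 3.33e-05). Even after prednisolone, SESN3 in CEM stayed far below the lowest Nalm6 library of any group.

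DEPTOR binds mTOR and inhibits both of its complexes. It was a low transcript in Nalm6 and close to the limit of counting in CEM. Prednisolone left Nalm6 at 3.02, 3.26 and 3.26 CPM against 3.04, 3.31 and 2.49 CPM untreated, overlapping groups with no call (log2 0.10 ± 0.12, adjusted p = 0.538). Dexamethasone libraries held 4.67, 4.63 and 4.82 CPM against 2.44, 2.22 and 2.30 CPM, a 1.97-fold rise (0.98 ± 0.11, adjusted p = 1.72e-06). In CEM, 0.152, 0.132 and 0.118 CPM untreated stood against 0.622, 0.477 and 0.456 CPM with prednisolone (1.90 ± 0.34, adjusted p = 0.000198). DEPTOR passed the filter on low counts in CEM only through the treated group, so a difference there was built into its being tested.

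PIK3R1 encodes the main regulatory subunit of PI3K, which stabilises the catalytic subunit and restrains it until a receptor is engaged. It was the gene of the 9 whose glucocorticoid response had opposite signs in the 2 lines. In Nalm6 it fell from 323, 318 and 300 CPM to 228, 227 and 226 CPM with prednisolone (log2 -0.50 ± 0.04, adjusted p = 4.99e-09). With dexamethasone it fell from 316, 324 and 315 CPM to 217, 222 and 218 CPM (-0.58 ± 0.04, adjusted p = 5.67e-09). In CEM it rose 2.35-fold, from 79.1, 84.6 and 81.1 CPM to 195, 193 and 200 CPM (1.23 ± 0.03, adjusted p = 4.82e-15). The treated libraries of the lines lay closer together than the untreated ones, and CEM remained below Nalm6.

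INPP5D encodes SHIP1, the blood-cell phosphatase that removes a phosphate from the PI3K lipid product. It was abundant in Nalm6, at 136, 139 and 140 CPM, and prednisolone libraries held 158, 149 and 148 CPM. That rise, log2 0.10 ± 0.04 after normalization (adjusted p = 0.0289), was the smallest of the 8 calls. It was kept under 3 of 8 other settings and in 1 of 6 fits that left out 1 library. Of those 6, the fit without untreated library 1 gave 0.09 (adjusted p = 0.111), without untreated library 2 0.10 (0.103), and without untreated library 3 0.11 (0.0595). The fit without prednisolone library 1 gave 0.06 (0.305) and without prednisolone library 3 0.09 (0.104). With dexamethasone INPP5D rose 1.75-fold, from 111, 120 and 119 CPM to 207, 215 and 205 CPM (0.81 ± 0.04, adjusted p = 4.33e-10). In CEM it rose 1.21-fold, from 72.6, 75.1 and 70.9 CPM to 91.9, 89.2 and 90.01 CPM (0.28 ± 0.03, adjusted p = 2.05e-06).

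SGK1 is not a brake but a kinase related to AKT and switched on by mTOR complex 2, and it is a classical glucocorticoid-induced gene. Untreated Nalm6 libraries held 2.28, 2.22 and 2.23 CPM and prednisolone libraries 17.99, 16.8 and 15.8 CPM, a 7.33-fold rise (log2 2.87 ± 0.08, adjusted p = 1.21e-14). With dexamethasone it rose 9.61-fold, from 1.58, 1.11 and 1.73 CPM to 15.3, 14.1 and 14.7 CPM (3.27 ± 0.11, adjusted p = 9.29e-12). In CEM the rise was 2.33-fold, from 3.21, 3.18 and 3.10 CPM to 7.78, 7.81 and 7.01 CPM (1.22 ± 0.09, adjusted p = 7.52e-09). Treated and untreated libraries were apart in every case. A promoter of SGK1 is shown because this gene rose most after PIK3IP1 in Nalm6. Of its 3 RefSeq start sites, only the second had a match in its window, the hexamer, and that site alone is printed. Its window is chr6:134177812-134178111 on the minus strand of GRCh38.p14, with AGAACA in capitals from base 6 after the start.

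SGK1: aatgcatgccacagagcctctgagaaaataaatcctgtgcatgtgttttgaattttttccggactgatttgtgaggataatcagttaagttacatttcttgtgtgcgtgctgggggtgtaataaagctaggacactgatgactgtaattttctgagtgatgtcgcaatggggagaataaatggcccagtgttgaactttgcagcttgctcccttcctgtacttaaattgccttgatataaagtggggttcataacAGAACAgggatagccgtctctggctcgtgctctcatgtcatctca

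**Figure D2:**
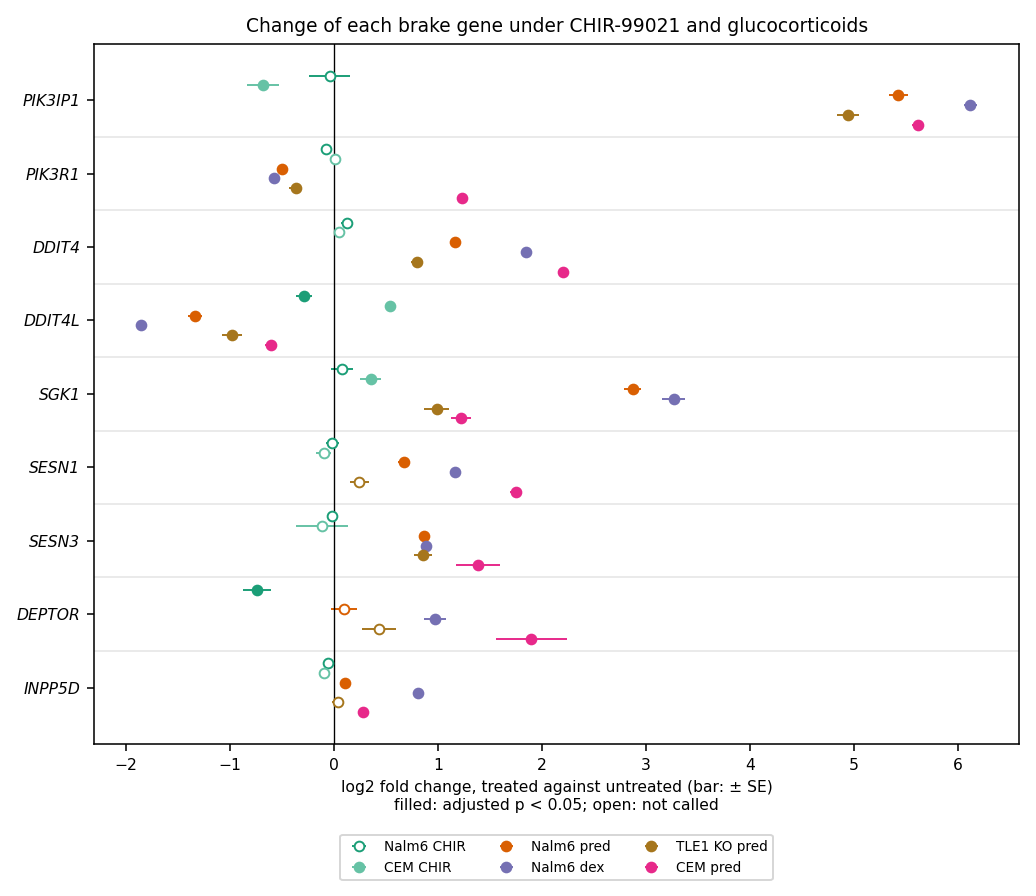
Log2 fold change of each of the 9 genes against an untreated group of the same cells, with Nalm6 dexamethasone against its own untreated group. Bars are 1 standard error, and points are filled where the adjusted p was under 0.05 and open otherwise. PIK3IP1 is far to the right in the glucocorticoid comparisons shown (4.94 to 6.12), DDIT4L is to the left in all of them (-0.61 to -1.85), and PIK3R1 is left of 0 in Nalm6 and right of 0 in CEM. The knockout with dexamethasone is not shown.

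The response to prednisolone was compared between lines by the interaction of line and treatment, with the doses differing (5 µM in Nalm6 and 10 µM in CEM). It differed for 7 of the 8 genes other than DEPTOR, against 26.9% of 20491 genes. PIK3R1 had the most significant difference (CEM minus Nalm6 log2 1.74 ± 0.05, adjusted p = 7.35e-18). DDIT4 (1.05 ± 0.06) and SESN1 (1.09 ± 0.08) were also raised more in CEM. DEPTOR, at very few counts in CEM and below the filter there without treatment, had a difference of 1.82 ± 0.36. DDIT4L was lowered less in CEM (difference 0.74 ± 0.09, adjusted p = 5.26e-07). SGK1 was the one gene called as raised less in CEM (-1.64 ± 0.12, adjusted p = 2.20e-10). For INPP5D the difference was 0.19 ± 0.05 (adjusted p = 0.00787). The call for SESN3 (0.53 ± 0.19, adjusted p = 0.0482) was kept under 2 of 8 other settings and in 1 of 12 fits without 1 library, which gave 0.44 to 0.64. For PIK3IP1 the difference was 0.20 ± 0.16 (adjusted p = 0.417) and no call was made, whereas with both strands counted together it was 1.23 (adjusted p = 1.23e-08). Cell line and dose cannot be told apart in these differences.

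CHIR-99021 changed fewer of these genes than the glucocorticoids did. In Nalm6 at 0.5 µM, 2 of the 9 changed, both downward, against 7.88% of 18082 genes (3.16% rose and 4.72% fell). DEPTOR fell 1.67-fold, from 3.04, 3.31 and 2.49 CPM to 1.74, 1.62 and 1.91 CPM (log2 -0.74 ± 0.13, adjusted p = 0.00939), with no overlap. DDIT4L fell 1.22-fold, from 34.6, 31.5 and 29.9 CPM to 29.2, 25.1 and 24.5 CPM (-0.29 ± 0.08, adjusted p = 0.0435), also without overlap. The DDIT4L call was kept in 2 of 6 fits without 1 library, with -0.22 (adjusted p = 0.151) without untreated library 1, -0.30 (0.134) without untreated library 2, -0.33 (0.0799) without untreated library 3 and -0.26 (0.0983) without CHIR-99021 library 2. The DEPTOR call was lost without untreated library 2 alone (-0.66, adjusted p = 0.0510). The other 7 genes had log2 fold changes from -0.08 to 0.12. PIK3IP1, at 0.972, 0.830 and 0.760 CPM with CHIR-99021, overlapped its controls (-0.04 ± 0.20, adjusted p = 0.930).

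In CEM at 2 µM, 3 of 8 tested genes changed (2 rose and 1 fell), against 10.8% of 17200 genes (5.41% rose and 5.43% fell), and DEPTOR did not pass the filter on low counts. DDIT4L rose 1.45-fold, from 22.3, 20.8 and 21.1 CPM to 30.8, 30.6 and 30.7 CPM (log2 0.54 ± 0.05, adjusted p = 3.57e-05). This was the one CHIR-99021 call among the 9 genes that held in every other setting and every fit with a library left out. SGK1 rose 1.28-fold, from 3.21, 3.18 and 3.10 CPM to 4.12, 3.72 and 4.15 CPM (0.35 ± 0.10, adjusted p = 0.0382), a call kept in 1 of 6 fits without a library and lost with DESeq2 (adjusted p = 0.102). The other 5, without each untreated library and without CHIR-99021 libraries 1 and 3, gave adjusted p-values from 0.0752 to 0.106. PIK3IP1 fell 1.60-fold, from 2.64, 2.57 and 2.60 CPM to 1.33, 2.05 and 1.47 CPM (-0.68 ± 0.15, adjusted p = 0.0143). The PIK3IP1 call was lost without untreated library 1 (-0.67, adjusted p = 0.0517), without CHIR-99021 library 1 (-0.53, adjusted p = 0.0524), and when reads of both strands were counted together (-0.41, adjusted p = 0.0917). DDIT4L thus fell in Nalm6 and rose in CEM under this agent, at doses that differ, and the difference was not tested. CHIR-99021 and prednisolone were set against the same untreated libraries in each line, which in Nalm6 was a choice that the titles do not settle. In CEM, PIK3IP1 was at -0.68 with CHIR-99021 and 5.61 with prednisolone.

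In the TLE1 knockout, prednisolone at 5 µM changed 6 of the 9 genes (4 rose and 2 fell), against 41.7% of 16555 genes (19.8% rose and 21.9% fell). PIK3IP1 rose 30.7-fold, from 0.938, 0.948 and 0.867 CPM to 28.4, 28.9 and 30.1 CPM (log2 4.94 ± 0.11, adjusted p = 3.63e-10). SESN3 rose 1.81-fold, from 22.2, 26.2 and 25.9 CPM to 47.4, 43.3 and 47.8 CPM (0.86 ± 0.08, adjusted p = 2.28e-05). DDIT4 rose 1.74-fold, from 140, 137 and 127 CPM to 237, 245 and 240 CPM (0.80 ± 0.06, adjusted p = 3.12e-06). These rises have the same sign as in parental cells. DDIT4L fell 1.97-fold (-0.98 ± 0.10, adjusted p = 2.11e-05) and PIK3R1 fell 1.29-fold (-0.37 ± 0.07, adjusted p = 0.00122). SESN1, at 25.005, 24.1 and 22.1 CPM against 18.3, 18.4 and 21.6 CPM, missed the threshold (0.25 ± 0.09, adjusted p = 0.0598), as did DEPTOR (0.43 ± 0.17, adjusted p = 0.0578) and INPP5D (0.04 ± 0.06, adjusted p = 0.643). Of 8 other settings, 3 called SESN1 (adjusted p = 0.00301 to 0.0435) and 5 called DEPTOR (0.00257 to 0.0470). Without untreated knockout library 3 both were called (0.34, adjusted p = 0.0101, and 0.58, adjusted p = 0.0181), and DEPTOR also without knockout prednisolone library 2 (0.57, adjusted p = 0.0220).

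SGK1 was where the knockout and parental responses to prednisolone differed most. Knockout libraries went from 2.54, 2.60 and 2.54 CPM to 5.31, 5.28 and 5.05 CPM, a 1.98-fold rise (log2 0.99 ± 0.12, adjusted p = 7.64e-05), against 7.33-fold in parental cells. The interaction of genotype and treatment was -1.87 ± 0.13 (adjusted p = 7.01e-07), which placed SGK1 at rank 17864 of 17952 genes ordered from most raised to most lowered. The call held in all 8 other settings and all 12 fits without 1 library. In all, 2 of the 9 genes had a called interaction, against 3.48% of all genes. The other was DDIT4, with a smaller difference (-0.34 ± 0.08, adjusted p = 0.0271) that was kept in 5 of 12 fits without 1 library. Leaving out untreated parental library 1 or 2, untreated knockout library 1 or 2, knockout prednisolone library 2 or 3, or parental prednisolone library 3 ended it (adjusted p = 0.0541 to 0.103). Counting both strands together also ended it (-0.34, adjusted p = 0.0624). For SESN1 the difference was -0.40 ± 0.11 and just missed the threshold (adjusted p = 0.0551). It was called under 5 of 8 other settings (adjusted p = 0.00681 to 0.0428), and without untreated knockout library 1 (0.0372) or knockout prednisolone library 1 (0.0350). For PIK3IP1 it was -0.46 ± 0.19 (adjusted p = 0.217). SESN3 showed 0.01 ± 0.10 (adjusted p = 0.973).

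**Figure D3:**
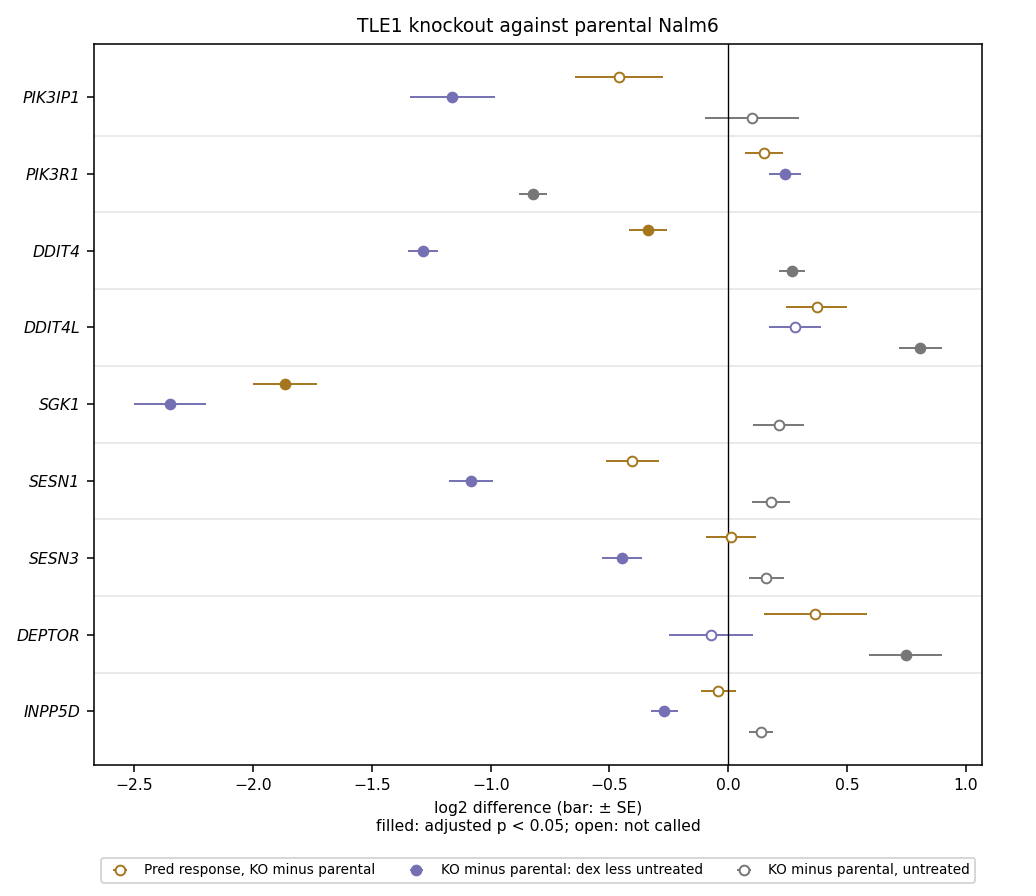
Log2 differences between TLE1 knockout and parental Nalm6 for the 9 genes: untreated cells, the prednisolone response, and the knockout difference under dexamethasone less that in untreated cells, with bars of 1 standard error and filled points at an adjusted p under 0.05. SGK1 has the lowest values in the prednisolone (-1.87) and dexamethasone (-2.35) contrasts, while PIK3R1 is lowest in untreated cells (-0.82).

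Without treatment, the knockout differed from parental cells in 4 of the 9 genes, against 27.1% of 17208 genes. PIK3R1 was 1.77-fold lower in the knockout, at 164, 183 and 177 CPM against 323, 318 and 300 CPM (log2 -0.82 ± 0.06, adjusted p = 1.25e-05). DDIT4L was 1.75-fold higher, at 49.4, 53.5 and 62.4 CPM against 34.6, 31.5 and 29.9 CPM (0.81 ± 0.09, adjusted p = 0.000203). DEPTOR was 1.68-fold higher, at 4.80, 4.01 and 5.75 CPM against 3.04, 3.31 and 2.49 CPM (0.75 ± 0.15, adjusted p = 0.00626). DDIT4 was 1.20-fold higher (0.27 ± 0.06, adjusted p = 0.00638). The genotypes did not overlap for 6 of the 9 genes, the 4 called ones with SGK1 and INPP5D, nor for 44.3% of all genes. SGK1 and PIK3IP1, the 2 largest responders to glucocorticoid in Nalm6, had no called difference at baseline (0.21 ± 0.11 and 0.10 ± 0.20, adjusted p = 0.176 and 0.752).

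Under dexamethasone, all 9 genes differed between the genotypes, against 56.6% of 16763 genes. SGK1 was 4.37-fold lower in the knockout, at 3.93, 2.85 and 3.21 CPM against 15.3, 14.1 and 14.7 CPM (log2 -2.13 ± 0.09, adjusted p = 4.44e-14). PIK3IP1 was 2.08-fold lower, at 48.7, 48.8 and 52.2 CPM against 103, 105 and 106 CPM (-1.06 ± 0.04, adjusted p = 1.12e-15). DDIT4 was 2.01-fold lower, at 230, 218 and 221 CPM against 441, 458 and 459 CPM (-1.01 ± 0.03, adjusted p = 1.91e-16). The genotypes did not overlap for any of the 9, nor for 61.4% of all genes. SESN1 was 1.86-fold lower (-0.89 ± 0.04), PIK3R1 1.49-fold lower (-0.58 ± 0.03), SESN3 1.21-fold lower (-0.28 ± 0.04) and INPP5D 1.09-fold lower (-0.12 ± 0.03). DDIT4L was 2.14-fold higher, at 97.6, 103 and 101 CPM against 45.0, 48.2 and 48.8 CPM (1.10 ± 0.04, adjusted p = 1.03e-15), and DEPTOR 1.61-fold higher (0.68 ± 0.09, adjusted p = 1.50e-06).

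The knockout difference under dexamethasone less that in untreated cells was called for 7 of the 9 genes, against 30.3% of 18024 genes. It was -2.35 ± 0.15 for SGK1, -1.28 ± 0.06 for DDIT4, -1.16 ± 0.18 for PIK3IP1 and -1.08 ± 0.09 for SESN1. It was -0.45 ± 0.08 for SESN3, -0.27 ± 0.06 for INPP5D and 0.24 ± 0.07 for PIK3R1. DDIT4L (0.28 ± 0.11, adjusted p = 0.0614) and DEPTOR (-0.07 ± 0.18, adjusted p = 0.804) had no call. The contrast used the untreated knockout group and the untreated Nalm6 group that is not labelled with the parental dexamethasone libraries. When the untreated group labelled with those libraries was used instead, an alternative chosen after seeing the data, 6 of 9 were called. Over all genes, 6149 were called in place of 5459. SGK1 (-2.89), DDIT4 (-1.12), SESN1 (-0.83), INPP5D (-0.47) and PIK3R1 (0.31) kept their calls. PIK3IP1 lost its call (-0.37, adjusted p = 0.136), SESN3 was at 0.017 (adjusted p = 0.913) and DDIT4L was called at 2.71 (adjusted p = 8.86e-11). For those 3 genes the call rests on which untreated parental group was used.

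Untreated CEM was compared with the untreated Nalm6 group of the dexamethasone experiment, and all 8 genes other than DEPTOR differed, against 77.5% of 18018 genes. DEPTOR passed the filter there only through Nalm6, where it is high, and is given as a value. SESN3 was 66.6-fold lower in CEM (log2 -6.06 ± 0.11, adjusted p = 2.07e-14) while DEPTOR stood 17.3-fold lower (-4.11 ± 0.22). PIK3R1 was 4.01-fold, INPP5D 1.64-fold, SESN1 1.61-fold and DDIT4 1.44-fold lower. SGK1 was 2.07-fold higher (1.05 ± 0.15) and PIK3IP1 1.73-fold higher (0.79 ± 0.13). Against the other untreated Nalm6 group, an alternative added after seeing the data, the same 8 were called again in the same directions. Over all genes, 15775 were called in place of 13971. DDIT4L moved most with this choice, from -3.00 ± 0.05 to -0.53. PIK3IP1 moved from 0.79 to 1.63 and SGK1 from 1.05 to 0.55, while SESN3 (-5.55), DEPTOR (-4.36) and PIK3R1 (-1.89) moved less. The size of the line difference in DDIT4L thus rests on the untreated Nalm6 group used.

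Levels can be compared between genes only per kilobase of exon, in CPM per kb. The length joins the exons of all annotated isoforms (9992 bases for SGK1 and 3805 for PIK3IP1). It can exceed the transcript made, so the order is approximate. In untreated Nalm6 the order ran from DDIT4 (55.2) through PIK3R1 (29.2), INPP5D (15.9), DDIT4L (10.7), SESN1 (3.41), SESN3 (2.14) and DEPTOR (1.12) to PIK3IP1 (0.227) and SGK1 (0.225). The last pair overlapped between libraries and the other neighbours did not. With prednisolone PIK3IP1 moved from the 8th to the 4th place in Nalm6, at 10.1 CPM per kb. In CEM with prednisolone it was 2nd, at 34.2 CPM per kb, behind DDIT4 at 199 CPM per kb. DDIT4 stood first in all 11 groups.

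**Figure D4:**
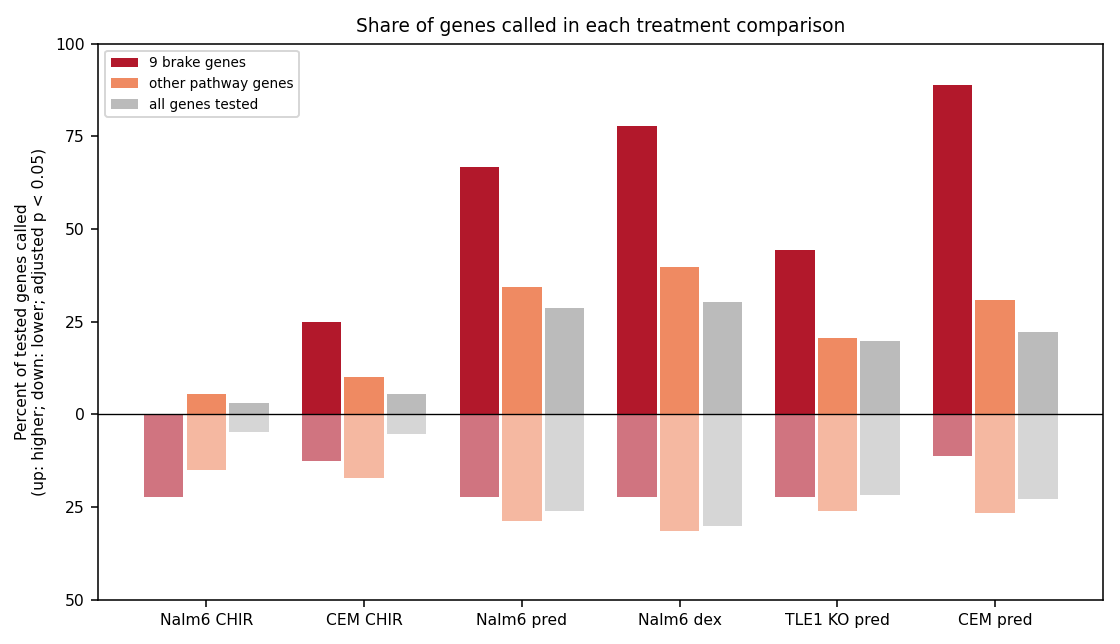
Percent of tested genes called higher (above 0) and lower (below 0) in each of the 6 treatment comparisons, for the 9 genes, for the other genes of the route and for all genes tested. In the parental glucocorticoid comparisons, 6, 7 and 8 of the 9 genes were called higher, against 28.7%, 30.2% and 22.3% of all genes. The last count includes DEPTOR, which passed the filter in CEM only through the treated group. With CHIR-99021 in Nalm6, 0 of 9 were called higher, against 3.16% of all genes.

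Beyond these 9 genes, 75 genes of the PI3K, AKT and mTOR route were listed by role. In Nalm6 with prednisolone 25 of 73 tested rose (34.2%) and 21 fell (28.8%), against 28.7% and 26.1% of all genes, with a median log2 fold change of 0.02. With dexamethasone 29 of 73 rose (39.7%) and 23 fell (31.5%), against 30.2% of all genes in each direction. In CEM with prednisolone 22 of 71 rose (31.0%) and 19 fell (26.8%), against 22.3% and 22.8%. In the knockout with prednisolone 15 of 73 rose (20.5%) and 19 fell (26.0%), against 19.8% and 21.9%. The medians were 0.10, 0.01 and -0.02 in the latter 3 comparisons, and nothing particular to the route is read from these shares. The TSC and nutrient-sensing genes include GATOR1 subunits and also RHEB, which is not a brake. They split 3 up and 4 down of 12 in Nalm6 with prednisolone and 5 up and 3 down of 12 in CEM. Catalytic and regulatory PI3K subunits, listed together with the adaptor PIK3AP1, split 4 up and 3 down of 11 in Nalm6 and 4 up and 2 down of 11 in CEM.

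Single genes of the route moved more than these medians. EIF4EBP1, a translation repressor that mTOR complex 1 inactivates, fell with prednisolone in Nalm6 (log2 -1.08 ± 0.05, from 125 ± 2.55 to 60.1 ± 4.599 CPM, SD), in CEM (-0.84 ± 0.04) and in the knockout (-1.19 ± 0.10). TRIB3, a pseudokinase that binds AKT, fell in Nalm6 (-1.31 ± 0.05) and in the knockout (-0.92 ± 0.06). TFEB, the lysosomal gene regulator that mTOR complex 1 holds in the cytoplasm, rose in Nalm6 with prednisolone (1.00 ± 0.05). CASTOR1, an arginine sensor that restrains mTOR complex 1, rose with dexamethasone in Nalm6 (3.58 ± 0.14, from 0.681 ± 0.0985 to 8.49 ± 0.654 CPM) and with prednisolone in CEM (1.05 ± 0.10). IL7R, a cytokine receptor upstream of PI3K, rose in CEM from 9.44 ± 0.190 to 107 ± 2.71 CPM (3.48 ± 0.04). With CHIR-99021, 4 of 73 route genes rose and 11 fell in Nalm6 (5.48% and 15.1%, against 3.16% and 4.72% of all genes). Among those that fell were the adaptors GAB1 (-0.44 ± 0.04) and IRS2 (-0.44 ± 0.07), and the autophagy kinase ULK1 (-0.39 ± 0.07). In CEM 7 of 70 rose and 12 fell, 10.0% and 17.1% against 5.41% and 5.43%. There the adaptor PIK3AP1 (0.53 ± 0.14), IL7R (0.50 ± 0.07) and the sestrin SESN2 (0.35 ± 0.07) rose.

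Across the 11 group means, each gene's pattern was set against 14129 others by Pearson's r on log2(CPM + 1), as a description, since the groups share cells and treatments. DDIT4 and SESN1 were each other's nearest gene among all of them (r = 0.98), followed for DDIT4 by TOB1 (0.97). PIK3IP1 was most like GLUD1P3 (0.99), PAXIP1-DT (0.99) and ZNF211 (0.98). PIK3R1 was most like PTK2B (0.96). SESN3 (TSPAN17, r above 0.99) and DEPTOR (LRRC27, 0.99) had nearest genes that were, like them, low in CEM. DDIT4L had the weakest nearest match of the 9, MRPL28 at 0.91.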

How the data were processed

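The count of reads per gene was deposited by the authors for each library in the layout of the aligner STAR, unstranded and per strand. The submitters' processing notes name Bowtie2, DESeq2 and hg19, without versions, and how these relate to the STAR layout is not given in the sources used here. Column 4 held 12.3 to 15.3 times the gene counts of column 3 and was used throughout, and the 4 rows of totals were left out of the 62446 gene rows (reads outside genes 18.4% to 32.7% of a library, unmapped 2.84% to 11.2%, multiply mapped 4.83% to 7.55%, ambiguous 4.70% to 7.45%). Groups were taken from the sample titles, since the labels' treatment text assigns the drugs the other way round between parental and knockout cells. The series text speaks of independent experiments for part of the groups; for the rest, p-values measure only the spread between these libraries. All replicate pairs differed by more than sampling noise (chi-square per degree of freedom 1.85 to 43.7), so none was treated as a repeat run of another. Each library was counted singly. These values do not show whether the libraries come from separate cultures.

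Fits used only the groups of the comparison, in edgeR 4.0.16 in R 4.3.3 (filterByExpr, TMM, quasi-likelihood F test, Benjamini-Hochberg over all genes tested, called at 0.05), and SE is the log2 fold change over the root of F. The scripts were tested on simulated data. Alternatives were DESeq2 1.42.0, RLE size factors, a minimum of 10 counts per library or no filter, robust moderation, all 33 libraries in 1 fit, a replicate block, the unstranded column, each library left out, and the other untreated Nalm6 group, which was added later. Per-kb levels use the summed exon length in GENCODE v29. The 9 genes, the 75 route genes and the markers were chosen with earlier results of these data known. Route genes named singly are, per comparison, at most 3 with the largest called change, an average log2 CPM of at least 1 and no overlap. Protein sequences were not analysed here.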

Additional observations from a re-analysis of the deposited data

Results flagged for a closer look

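The response to prednisolone differed between knockout and parental Nalm6, by an interaction test with edgeR, for SGK1 (log2 -1.87) and DDIT4 (-0.34). Between CEM and Nalm6 it differed for PIK3R1 (1.74), DDIT4 (1.05), DDIT4L (0.74), SGK1 (-1.64), SESN1 (1.09), SESN3 (0.53) and INPP5D (0.19), at doses that also differ. The SESN3 call was kept under 2 of 8 other settings and in 1 of 12 fits without 1 library. DEPTOR (1.82) was flagged too, but it was below the filter in untreated CEM and is given as a value only. The knockout difference under dexamethasone was not that of untreated cells for PIK3IP1 (-1.16), PIK3R1 (0.24), DDIT4 (-1.28), SGK1 (-2.35), SESN1 (-1.08), SESN3 (-0.45) and INPP5D (-0.27), and for PIK3IP1 and SESN3 this rested on which untreated parental group was used.

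DDIT4L went down in every CHIR-99021 library of Nalm6 (log2 -0.29) and up in every one of CEM (0.54), and this difference was not tested.

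The strand opposite PIK3IP1, which is outside the column 4 counts and enters the unstranded alternative only, also held more reads with glucocorticoid. On the CPM scale of the library it held 4.99 ± 0.142 (SD, n = 3) in Nalm6 with prednisolone against 2.5004 ± 0.132 untreated, and 5.22 ± 0.209 with dexamethasone against 1.67 ± 0.161. It held 3.74 ± 0.347 in CEM with prednisolone against 1.91 ± 0.692, and 4.29 ± 0.431 in the knockout with prednisolone against 2.41 ± 0.173.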

How the results depend on the processing

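Of 83 calls among the 9 genes, 72 held in every setting and every fit without 1 library. Of 943 values under other settings, 900 kept direction and side of the threshold, 25 gained a call, 17 lost one and 1 turned sign: SESN3 in the knockout difference under dexamethasone, at 0.017 with the other untreated Nalm6 group. Of 858 values without 1 library, 794 kept both, 13 gained a call, 36 lost one and 15 turned sign, none of the 15 called in the full fit. The cause of these changes was not tested.

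With no filter on low counts, 2320 genes in place of 1425 were called under CHIR-99021 in Nalm6, and 981 in place of 624 for the prednisolone response of knockout minus parental cells, where 4 of the 9 genes in place of 2 were called. With all 33 libraries in 1 fit, that response gave 1252 genes and 4 of the 9, and the untreated knockout comparison 7 of the 9 in place of 4. The unstranded column gave 1 of the 9 for that response.

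Replicate numbers did not pair the libraries: correlations of same-numbered deviations ran from -0.130 to 0.0943, and each library correlated best with its own number in Nalm6 with prednisolone and between the untreated Nalm6 groups only (3 of 3 pairs). The replicate block left 925 genes called under CHIR-99021 in Nalm6. It also ended the SGK1 call under CHIR-99021 in CEM (adjusted p = 0.0677).

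Leaving out 1 library gave 0 to 3 of the 9 genes and 409 to 2707 genes under CHIR-99021 in Nalm6, and 1 to 3 and 1001 to 1948 in CEM. It gave 2804 to 6732 genes in the untreated knockout comparison, and 1 to 3 of the 9 and 361 to 1852 genes for the knockout minus parental response. The lowest of these counts came without untreated Nalm6 library 2 (0 of 9), untreated Nalm6 library 3 (409), CEM CHIR-99021 library 2 (1001) and untreated Nalm6 library 1 (2804 and 361), and the highest without Nalm6 CHIR-99021 library 3 (2707) and untreated knockout library 3 (1852). Counts over all genes moved by over 1.5 times without any untreated Nalm6 library in the Nalm6 CHIR-99021 and both knockout results, without Nalm6 CHIR-99021 library 1 or 3, without any untreated CEM library or CEM CHIR-99021 library 2, and without untreated knockout library 3. Values that turned sign ranged under CHIR-99021 in Nalm6 from -0.14 to 0.14 for PIK3IP1, -0.046 to 0.031 for SESN1 and -0.051 to 0.0067 for SESN3. In CEM they ranged from -0.036 to 0.050 for PIK3R1 and -0.20 to 0.0098 for SESN3. DEPTOR ranged from -0.012 to 0.17 with prednisolone in Nalm6 and from -0.19 to 0.083 in the knockout difference under dexamethasone, and SESN3 from -0.071 to 0.067 in the knockout minus parental response. DEPTOR and SESN3 had their lowest levels in CEM, with group means of 0.111 to 0.518 CPM and 0.427 to 1.23 CPM.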
